A study of Mus musculus with 17 samples.

Results

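The genes described here encode matricellular proteins and close companions that activated fibroblasts make, namely *Postn*, *Tnc*, *Ccn1*, *Ccn2*, *Ccn5*, *Thbs1*, *Thbs4*, *Sparc*, *Spp1* and *Cthrc1*. They were chosen by name, and all 10 were found among the 56748 genes of the count table. Poly(A)-selected RNA from mouse heart was sequenced in 17 libraries, 1 per heart, with 9 from *Polg* hMut mice (hMut) and 8 from control mice (Ctrl). The hMut mice were homozygous for an inducible *Polg* allele (*Polg* iMut/iMut; +/Ckmm-cre) in which Cre switches the gene to POLG D257A, the proofreading-deficient form of the mitochondrial DNA polymerase. Cre was driven by the promoter of *Ckmm*, the muscle creatine kinase gene, which is active in cardiomyocytes and in skeletal muscle, so that fibroblasts and the other cells of the heart were not the cells targeted. The alleles carried by the Ctrl mice are not given in the sources used here beyond their being controls. The mice were 12 to 16 months old and received no treatment. Since whole tissue was sequenced, more cells of a type and more RNA per cell cannot be told apart.

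Matricellular proteins are secreted into the extracellular matrix, where they bind integrins, growth factors and collagens and alter how cells attach and signal, rather than bearing load themselves. Most are scarce in the healthy adult heart and return after infarction, pressure overload or ageing, made largely by fibroblasts that have become activated and, for osteopontin, by macrophages. Periostin, the product of *Postn*, is the most widely used marker of the activated cardiac fibroblast.

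Library totals lay between 32915159 and 46486964 counts. Reads of mtDNA-encoded genes took 23.5 to 30.9% of the counts in Ctrl hearts and 15.9 to 23.02% in hMut hearts, so levels below are CPM, the count of a gene scaled to a library of fixed size, on library sizes scaled by the trimmed mean of M-values (TMM). *Polg* itself was higher in hMut hearts, by 0.74 on the log2 scale (SE 0.10, adjusted p = 0.000448 in edgeR's quasi-likelihood test, adjusted by Benjamini and Hochberg), and lay above every Ctrl heart in 8 of 9 hMut hearts. The hMut hearts of replicates 6 and 9 stood apart from the others in these genes, and the difference of each tested member is given with and without them.

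Of the 10 genes, 9 passed the filter on low counts and were tested, and *Cthrc1* did not. Of the 9, 3 (*Ccn2*, *Thbs1* and *Sparc*) were higher in hMut hearts at an adjusted p under 0.05, and 0 were lower, where 4.62% of all 16195 tested genes were called, 3.48% as higher and 1.14% as lower. By unadjusted p, 8 of the 9 were higher and 0 lower at p under 0.05, beside 25.8% of all tested genes in either direction. The fitted log2 fold change was positive for all 9, whereas it was positive for 50.5% of all tested genes. For 0 of the 9 did the 9 hMut hearts lie wholly above the 8 Ctrl hearts, a pattern that 0.543% of all tested genes showed.

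**Figure D1:**
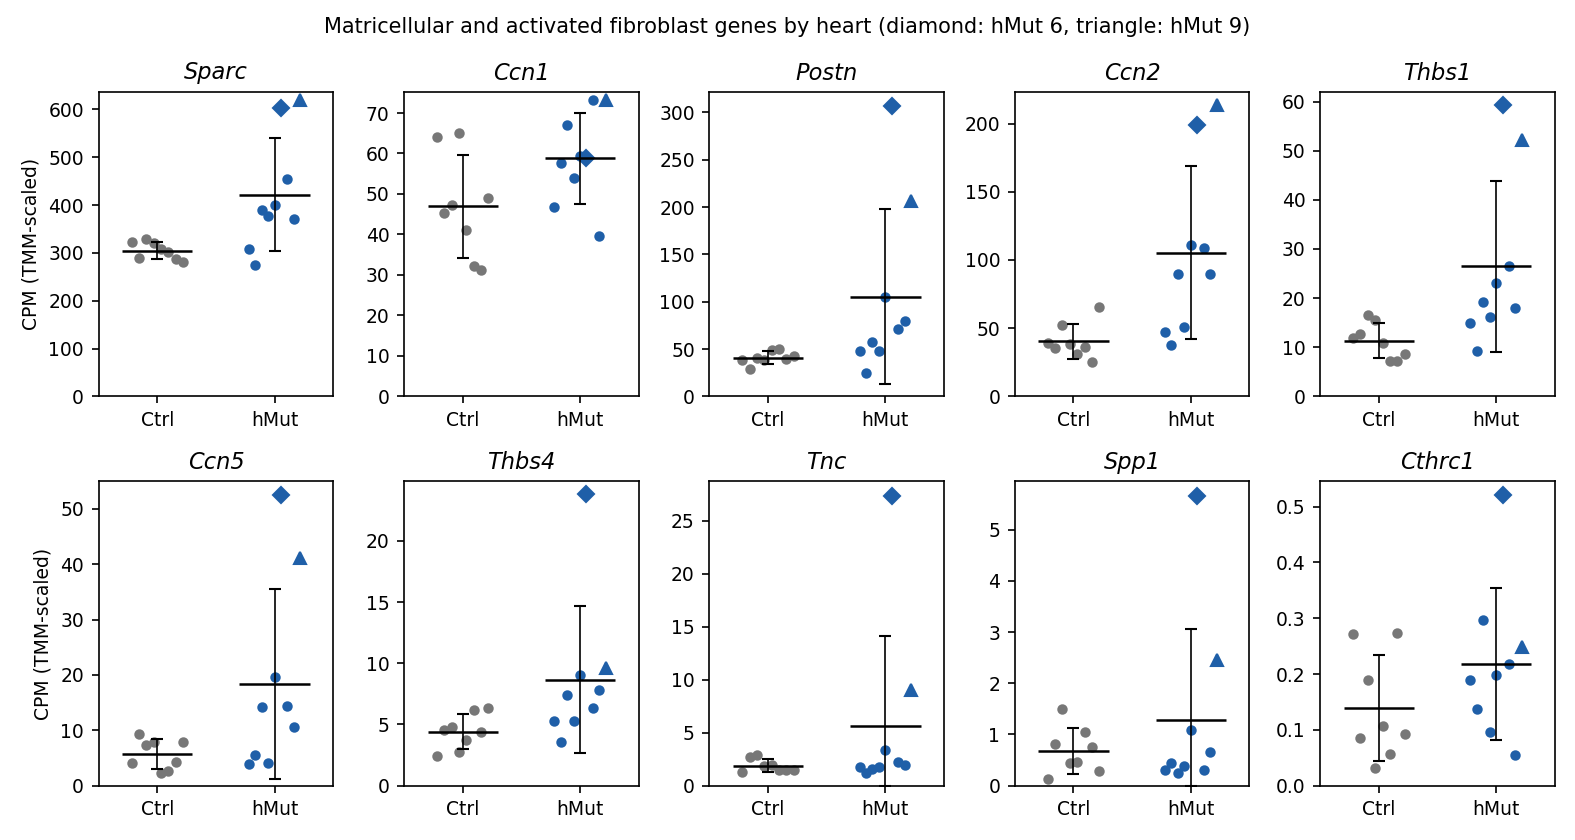
Level of each gene in every heart, in CPM on a linear axis from 0. Grey points are the 8 Ctrl hearts and blue points the 9 hMut hearts, with hMut replicate 6 as a diamond and replicate 9 as a triangle, and the line and bars give mean ± SD (bars end at 0 where the SD exceeds the mean). Replicates 6 and 9 were above each of the other 15 hearts in 8 of the 9 tested genes, all but *Ccn1*.

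Levels of different genes were compared per kilobase of the gene length in the count table. In Ctrl hearts *Sparc* was the highest at a mean of 80.5 CPM per kb, followed by *Ccn1* at 23.3 and *Ccn2* at 14.1 CPM per kb. *Postn* came next at 4.71 CPM per kb, then *Ccn5* at 2.99, *Thbs1* at 1.87 and *Thbs4* at 1.34 CPM per kb. *Spp1* at 0.411, *Tnc* at 0.242 and *Cthrc1* at 0.0871 CPM per kb closed the order. *Sparc* and *Ccn1* did not overlap between Ctrl hearts, nor did *Ccn2* and *Postn*. Every other pair of neighbours overlapped in range over the Ctrl hearts, and *Thbs1* exceeded *Thbs4* in only 5 of 8 and *Spp1* exceeded *Tnc* in 6 of 8 of them. In hMut hearts the mean of *Ccn2*, 36.8 CPM per kb, was above that of *Ccn1*, 29.1 CPM per kb, although *Ccn1* remained the higher of the pair in 4 of 9 hMut hearts, compared with 8 of 8 Ctrl hearts. The order of the 10 Ctrl means was the same per kilobase of the spliced canonical transcript. The length matters most for *Postn*, whose table length of 8702 bases exceeds the 3166 bases of its canonical transcript. Its Ctrl level would be 13.0 CPM per kb by the shorter length, beside 14.8 CPM per kb for *Ccn2* by its own canonical length. The Ctrl ranges of *Postn* and *Ccn2* then overlap, so their separation above holds for the table length only.

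The gene models and upstream sequences of a few members are given first, since 8 of the 9 tested genes peaked in the same hearts. In GENCODE vM39 (GRCm39) the canonical transcripts range from 4 exons in *Cthrc1* to 26 exons in *Tnc*, and the encoded proteins from 245 residues (*Cthrc1*) to 2019 residues (tenascin-C). The CCN genes are compact, with 5 exons each in *Ccn1*, *Ccn2* and *Ccn5* and 379, 348 and 251 residues, the last being short because CCN5 lacks the C-terminal domain of its relatives. Promoter windows, from RefSeq on GRCm38.p6 and reaching from 250 bases before to 50 bases after an annotated start, were found for 6 of the 10 genes (*Postn*, *Ccn1*, *Tnc*, *Spp1*, *Sparc* and *Thbs4*), with 9 windows in all. They were searched on both strands for TATAAA (the TATA box), GGAATG (the core bound by TEAD factors, CATTCC on the other strand) and TGANTCA (bound by AP-1). The 250 bases before the start are shown for *Postn*, the gene with one of the widest ranges between hearts, for *Ccn1*, the one that moved least, and for *Thbs4*, with these motifs in capitals.
*Postn* (plus strand, chr3:54360857-54361106): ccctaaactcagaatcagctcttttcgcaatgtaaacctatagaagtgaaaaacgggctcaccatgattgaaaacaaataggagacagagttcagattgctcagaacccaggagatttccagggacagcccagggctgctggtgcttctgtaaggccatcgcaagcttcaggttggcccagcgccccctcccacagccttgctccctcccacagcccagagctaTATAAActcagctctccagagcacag
*Ccn1* (minus strand, chr3:145649986-145650235): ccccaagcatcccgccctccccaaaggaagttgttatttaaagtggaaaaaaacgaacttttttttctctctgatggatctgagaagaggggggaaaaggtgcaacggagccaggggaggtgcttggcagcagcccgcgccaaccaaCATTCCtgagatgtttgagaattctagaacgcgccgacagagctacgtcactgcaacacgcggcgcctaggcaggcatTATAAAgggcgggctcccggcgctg
*Thbs4* (minus strand, chr13:92794819-92795068): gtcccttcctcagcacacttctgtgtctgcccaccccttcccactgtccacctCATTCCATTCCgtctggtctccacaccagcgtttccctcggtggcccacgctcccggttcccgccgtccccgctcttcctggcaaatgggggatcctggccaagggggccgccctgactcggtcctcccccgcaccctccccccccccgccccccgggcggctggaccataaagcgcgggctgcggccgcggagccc
Counted from the start site, TATAAA began at position -26 in this *Postn* window and at -25 in that of *Ccn1*. A second *Postn* window, chr3:54359017-54359316, held none of these motifs. The letters CATTCC began at -103 in *Ccn1* and at -197 and -192 in *Thbs4*, where the matches share 1 base. Of 32851 windows in the table, 13.6% held TATAAA, 14.7% held GGAATG and 7.81% held TGANTCA in either orientation. Of the 9 windows of these genes 5 held TATAAA (4 of the 6 genes), 2 held GGAATG and 0 held TGANTCA. The remaining TATAAA matches lay farther from the start. In *Tnc* a single site was counted in both of its overlapping windows, at -126 and -205 from their starts. In *Spp1* the match was at -211. These matches describe letters only.

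*Postn* (ENSMUSG00000027750, GRCm39 chr3:54268530-54298458) encodes periostin, which binds integrins and collagen and is switched on as fibroblasts activate. Its level in Ctrl hearts ran from 29.4 through a median of 39.9 to 50.3 CPM, and in hMut hearts from 24.9 through 71.6 to 307 CPM. The means were 41.0 ± 6.64 CPM (SD, n = 8) and 105 ± 92.2 CPM (SD, n = 9). In 6 hMut hearts the level exceeded that of every Ctrl heart, whereas replicate 2 was below every one. Replicate 6 was at 7.48 times and replicate 9 at 5.03 times the Ctrl mean, and the next heart, replicate 5, at 105 CPM. The difference of 1.36 (log2, SE 0.39) missed the threshold narrowly (edgeR's quasi-likelihood test, adjusted p = 0.0512). Leaving out hMut replicate 1, 2 or 4 brought it past the threshold (adjusted p 0.0142 to 0.0456), and without both replicates 6 and 9 it was 0.60 (SE 0.21, adjusted p = 0.131). *Postn* was called by DESeq2, by limma-voom and by edgeR with a stricter filter on low counts.

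*Tnc* (ENSMUSG00000028364, chr4:63878022-63965252) encodes tenascin-C, a large hexameric glycoprotein that appears at sites of wound repair. It was scarce in Ctrl hearts, with levels from 1.28 through 1.66 to 2.85 CPM, and ran from 1.24 through 1.97 to 27.4 CPM in hMut hearts. Replicate 6 carried 27.4 CPM, 14.6 times the Ctrl mean, replicate 9 carried 9.04 CPM and replicate 5 carried 3.41 CPM, and the other 6 hMut hearts lay below the Ctrl maximum, replicate 2 below the Ctrl minimum also. The log2 difference of 1.58 (SE 0.59, edgeR adjusted p = 0.114) did not pass the test. It fell to 0.08 (SE 0.22, adjusted p = 0.887) without replicates 6 and 9. DESeq2 gave 0.55 (SE 0.33, adjusted p = 0.275), having replaced the count of 1156 in replicate 6 by 83 as an outlier. The group difference in *Tnc* thus rested on the 2 hearts.

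The CCN family of cysteine-rich secreted proteins divided. *Ccn2* (ENSMUSG00000019997, chr10:24471340-24474581), which encodes connective tissue growth factor, a target of TGF-β and of YAP signalling, ran from 25.1 through 37.2 to 65.7 CPM in Ctrl and from 37.6 through 90.0 to 214 CPM in hMut hearts. All 9 hMut hearts were above the Ctrl median, and 6 were above every Ctrl heart. The means of 40.4 ± 12.8 CPM (SD, n = 8) and 105 ± 63.2 CPM (SD, n = 9) differed by 1.38 on the log2 scale (SE 0.32, adjusted p = 0.0183 by edgeR's quasi-likelihood test). *Ccn2* was called whichever single heart was left out (adjusted p 0.00458 to 0.0447), and also without both replicates 6 and 9, at 0.92 (SE 0.23, adjusted p = 0.0413), where it was the only called gene of the 9 and 2.67% of all tested genes were called. A noncoding gene on the opposite strand, *Gm15270*, overlaps it. Its own count was at most 96 in any heart, against a mean of 1478 counts for *Ccn2* in Ctrl hearts, and whether the counting used strand is not given in the sources used here.

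*Ccn5* (ENSMUSG00000027656, chr2:163662781-163675066) encodes a family member that opposes several actions of CCN2. It ran from 2.32 through 5.79 to 9.38 CPM in Ctrl and from 3.84 through 14.2 to 52.4 CPM in hMut hearts. In 6 hMut hearts the level exceeded the Ctrl range, while replicates 1, 2 and 4, at 3.84, 5.47 and 4.03 CPM, lay within the Ctrl range. The log2 difference was the largest of the 9 tested genes at 1.68 and did not pass the test (SE 0.50, edgeR adjusted p = 0.0601). Leaving out replicate 1, 2 or 4 brought it past the threshold (adjusted p 0.0282 to 0.0441), and without replicates 6 and 9 it was 0.84 (SE 0.36, adjusted p = 0.223). DESeq2 called *Ccn5* and limma-voom did not. In contrast, *Ccn1* (ENSMUSG00000028195, chr3:145352731-145355736), which encodes CYR61, an immediate-early protein that binds integrins, overlapped broadly between groups. It ran from 31.3 through 46.3 to 65.1 CPM in Ctrl and from 39.7 through 58.8 to 73.1 CPM in hMut hearts. Replicate 6 was at only 1.25 times and replicate 9 at 1.56 times the Ctrl mean. Its log2 difference of 0.33 (SE 0.15, edgeR adjusted p = 0.181) was not called under any of its 27 alternatives, and was 0.28 (adjusted p = 0.357) without replicates 6 and 9.

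Of the thrombospondin members, *Thbs1* passed the test and *Thbs4* did not. *Thbs1* (ENSMUSG00000040152, chr2:117942357-117957614) encodes thrombospondin 1, which activates latent TGF-β and binds CD36 and CD47. It ran from 7.15 through 11.4 to 16.6 CPM in Ctrl and from 9.24 through 19.2 to 59.3 CPM in hMut hearts, with 6 hMut hearts past the Ctrl range. The means, 11.4 ± 3.57 CPM (SD, n = 8) and 26.5 ± 17.4 CPM (SD, n = 9), differed by 1.23 on the log2 scale (SE 0.32, adjusted p = 0.0385 by edgeR's quasi-likelihood test). Replicates 6 and 9 stood at 5.22 and 4.59 times the Ctrl mean, and without both the difference was 0.68 (SE 0.21, adjusted p = 0.0908). The call was also lost when Ctrl replicate 1, 2, 5, 6, 7 or 8 or hMut replicate 5, 6, 7 or 9 alone was left out (adjusted p 0.0595 to 0.0789).

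*Thbs4* (ENSMUSG00000021702, chr13:92888098-92931326) encodes a pentameric thrombospondin of tendon and of the stressed heart. It ran from 2.45 through 4.45 to 6.39 CPM in Ctrl and from 3.55 through 7.43 to 23.8 CPM in hMut hearts. Replicate 6 was alone at 23.8 CPM, followed by replicate 9 at 9.58 and replicate 5 at 9.0 CPM, and 5 hMut hearts exceeded the Ctrl range. The log2 difference of 0.98 (SE 0.31) did not pass the test (edgeR adjusted p = 0.0733). Leaving out hMut replicate 2 brought it past the threshold (adjusted p = 0.0282), and without replicates 6 and 9 it was 0.54 (SE 0.21, adjusted p = 0.177). DESeq2 and limma-voom called *Thbs4*.

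*Sparc* (ENSMUSG00000018593, chr11:55285326-55314009) encodes osteonectin, which binds collagen and helps its fibrils form. It was the most abundant member and the tightest in Ctrl hearts, from 281 through 305 to 328 CPM, and ran from 275 through 391 to 619 CPM in hMut hearts. In 7 hMut hearts the level exceeded the Ctrl range, more than for any other of these genes, with replicates 1 and 2 the exceptions. The means were 305 ± 17.9 CPM (SD, n = 8) and 422 ± 119 CPM (SD, n = 9). The log2 difference was modest at 0.47 and passed the test by a small margin (SE 0.13, adjusted p = 0.0498 by edgeR's quasi-likelihood test). It was called in only 3 of the 17 fits with 1 heart left out, those without hMut replicate 1, 2 or 8. In the other 14 the adjusted p ran from 0.0561 to 0.0931, and without replicates 6 and 9 the difference was 0.27 (SE 0.08, adjusted p = 0.0861).

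*Spp1* (ENSMUSG00000029304, chr5:104582984-104588916), which encodes osteopontin, a ligand of integrins and CD44 made by scar macrophages, was near the limit of detection in most hearts. It ran from 0.136 through 0.602 to 1.49 CPM in Ctrl and from 0.247 through 0.440 to 5.66 CPM in hMut hearts. Replicate 6 at 5.66 CPM and replicate 9 at 2.46 CPM were the only hearts above the Ctrl range, and the mean of the other 7 hMut hearts was 0.717 times that of Ctrl. The log2 difference of 0.94 (SE 0.63, edgeR adjusted p = 0.346) did not pass the test and turned to -0.47 (SE 0.42, adjusted p = 0.580) without those hearts. *Cthrc1* (ENSMUSG00000054196, chr15:38940327-38950516) encodes a secreted protein of injured arteries and of fibroblasts in infarct scars. Its mean count was 5.13 in Ctrl and 8.67 in hMut libraries, and its highest level was 0.521 CPM, in hMut replicate 6. With no filter on low counts its log2 difference was 0.64 (SE 0.44, edgeR adjusted p = 0.459 over 35739 genes) and did not pass the test.

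The hMut hearts differed widely among themselves across these genes. Replicates 1 and 2 were above every Ctrl heart in 0 of the 9 tested genes and replicate 4 in 1. Replicates 7 and 8 were above every Ctrl heart in 6 genes each, replicates 3 and 5 in 7, replicate 6 in 8 and replicate 9 in 9. The share of all tested genes that each heart placed above every Ctrl heart was not computed, so these counts have no background. Replicate 6 was the highest of all 17 hearts for 6 genes, replicate 9 for 2 (*Ccn2* and *Sparc*) and replicate 7 for 1 (*Ccn1*). In all, both replicates 6 and 9 exceeded each of the other 15 hearts in 8 of the 9 tested genes, and 14.1% of all tested genes did the same. Counts from mtDNA-encoded genes took 15.9% in replicate 6, the lowest of the hMut hearts, 17.8% in replicate 5 and 18.6% in replicate 3. Replicate 9, at 20.6%, was close to replicates 1 and 4, at 20.04 and 20.5%, and replicate 2 was the highest at 23.02%, so the shares did not follow the order of hearts in these genes throughout. Whether the mtDNA share has a part in the order of hearts was not tested.

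**Figure D2:**
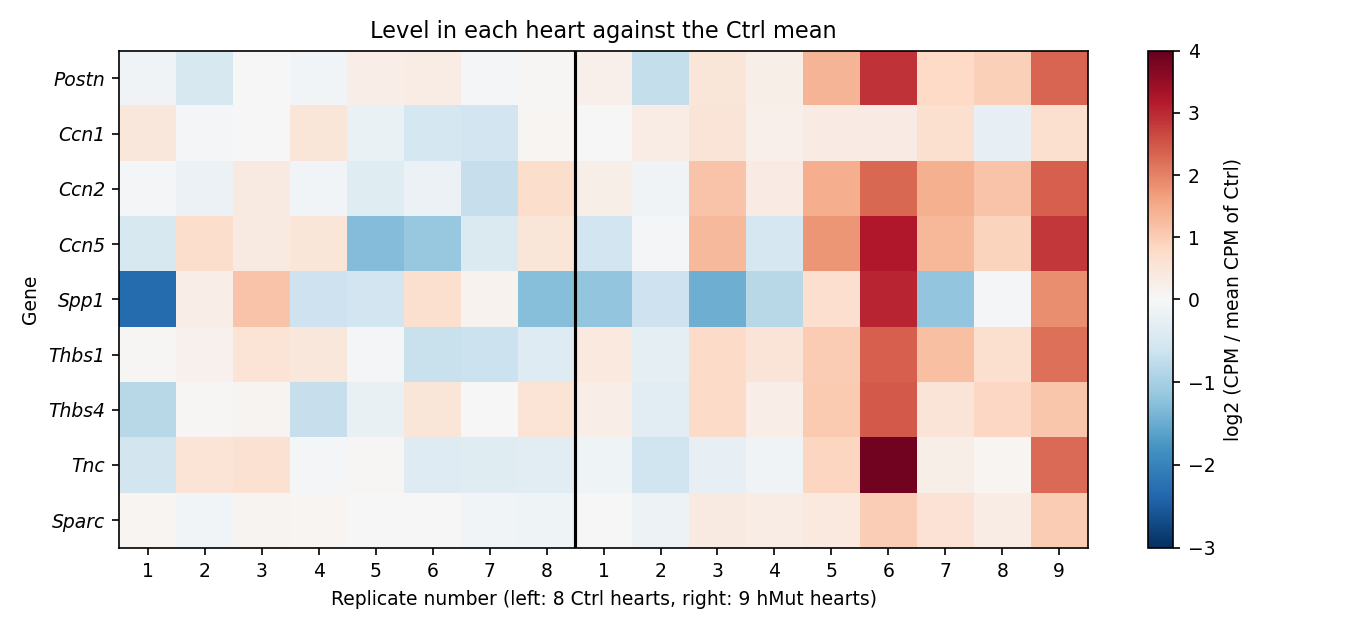
Level of the 9 tested genes in each heart as log2 of its CPM over the mean CPM of Ctrl, with Ctrl hearts left of the line and hMut hearts right of it. Replicates 6 and 9 are the darkest red columns, replicates 1, 2 and 4 resemble Ctrl, and the row of *Ccn1* stays pale throughout.

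**Figure D3:**
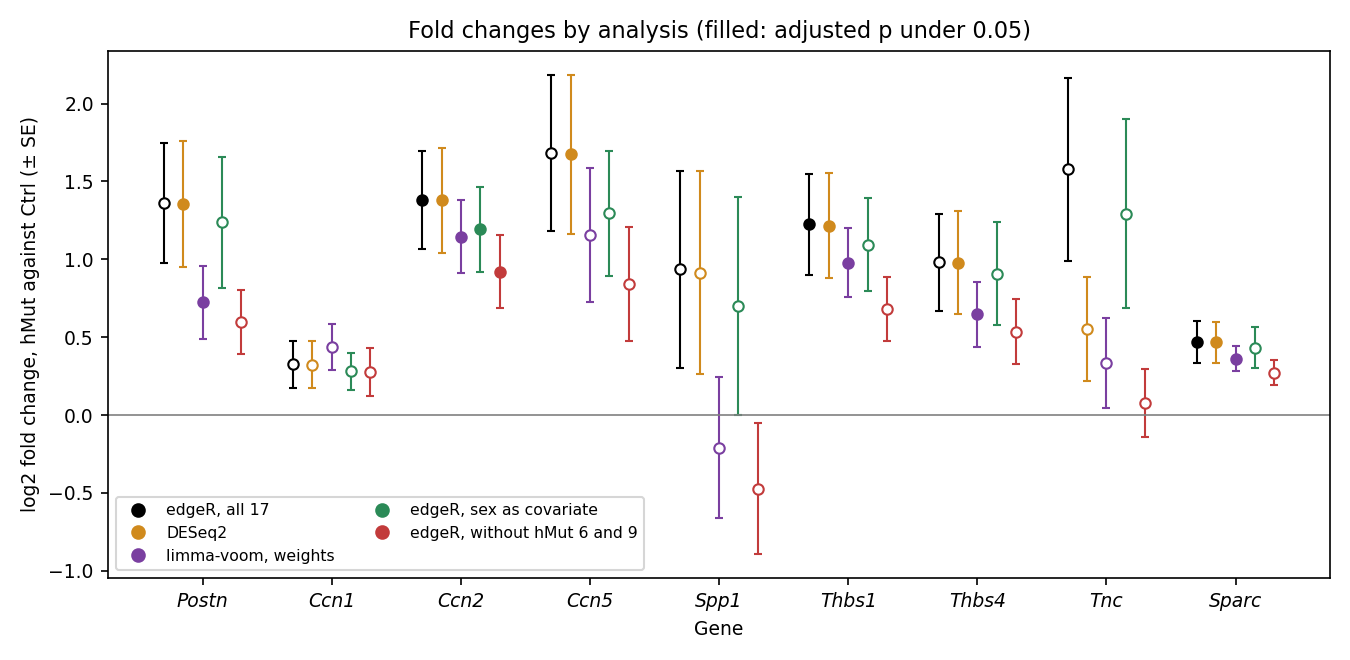
Log2 fold change of hMut against Ctrl with its SE for the 9 tested genes under 5 analyses, where filled symbols have an adjusted p under 0.05. *Ccn2* is filled in all 5. *Spp1* is negative with limma-voom weights (-0.21) and without replicates 6 and 9 (-0.47).

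Relatives of these proteins were examined as a wider list of 27 matricellular genes, of which 20 were tested. Of these 2 were higher and 0 lower, where 3.48% and 1.14% of all tested genes were. The median log2 difference was 0.27, beside 0.00 over all tested genes. Without replicates 6 and 9 the list's median was 0.17. *Comp*, cartilage oligomeric matrix protein and a fellow pentameric thrombospondin of *Thbs4*, rose by 2.23 (log2, SE 0.59, edgeR adjusted p = 0.0383). It averaged 3.01 CPM in Ctrl hearts and reached 39.3 CPM in replicate 6 and 48.7 CPM in replicate 9, and without both it was not called (0.89, adjusted p = 0.119). *Ccn4*, the WNT-induced CCN family member, rose by 0.98 (SE 0.19, adjusted p = 0.00742). It did not single out the same hearts, being 4.003 CPM in replicate 6 and 3.85 CPM in replicate 9 with a highest level of 4.94 CPM elsewhere, and it was called under all 27 alternatives, *Comp* under 11 of them. *Thbs2* went the other way, from 29.4 to 23.7 CPM, without passing the test (-0.31, adjusted p = 0.0801), and *Ccn3* differed by 0.09 (adjusted p = 0.736). DESeq2 and limma-voom called *Thbs2* lower (adjusted p = 0.0432 and 0.0270). In this list DESeq2 called 8 higher and 1 lower, and limma-voom 7 higher and 1 lower, where they called 9.19% and 12.8% of all genes. *Ibsp* and *Mepe*, bone relatives of *Spp1*, were at or under 3 counts in every library.

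Among 30 other genes of fibroblast activation, 28 were tested, with a median log2 difference of 0.59. Of these 6 were higher and 0 lower, where 3.48% and 1.14% of all tested genes were. By unadjusted p under 0.05, 22 were higher and 0 lower, beside 25.8% of all tested genes in either direction. DESeq2 called 10 higher and limma-voom 6, where they called 9.19% and 12.8% of all genes. Among the 6 that edgeR called higher were *Meox1*, *Cilp*, *Scx*, *Ltbp2* and *Fmod*. *Meox1*, a homeobox regulator of the activated fibroblast state, went from 16.7 to 35.4 CPM on average (log2 1.09, SE 0.25, edgeR adjusted p = 0.0174), lay above every Ctrl heart in 8 of 9 hMut hearts and was still called without replicates 6 and 9 (0.69, adjusted p = 0.0198). *Cilp*, a secreted antagonist of TGF-β, ran from 7.54 to 14.2 CPM in Ctrl and reached 175 CPM in replicate 6 (log2 2.13, adjusted p = 0.0322). Without replicates 6 and 9 *Cilp* did not pass (0.98, adjusted p = 0.0702). *Meox1* was called under 26 of 27 alternatives, *Cilp* under 15, *Scx* under 14, *Fmod* under 12 and *Ltbp2* under 11 of 27. The fibrillar collagen genes *Col1a1* (0.51, adjusted p = 0.145) and *Col3a1* (0.54, adjusted p = 0.133) and the myofibroblast actin gene *Acta2* (0.49, adjusted p = 0.185) did not pass the test. Without replicates 6 and 9, 1 gene of this list was called, where 2.67% of all tested genes were, and the median was 0.28.

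Of 25 receptor genes of these proteins, mainly integrin chains with *Cd44*, *Cd36*, *Cd47* and *Lrp1*, all were tested and 0 were called by edgeR. At an unadjusted p under 0.05, 9 were higher and 1 lower, beside 25.8% of all tested genes, and the median was 0.15 (0.04 without replicates 6 and 9). DESeq2 called 3 and limma-voom 6 of the 25, where they called 9.19% and 12.8% of all genes. *Itgb3*, the β3 integrin chain that binds periostin, osteopontin and CCN proteins, was the nearest at 0.47 (adjusted p = 0.0502), and at 0.32 (adjusted p = 0.138) without replicates 6 and 9. *Cd44*, the osteopontin receptor, averaged 10.3 CPM in Ctrl and stood at 46.0 CPM in replicate 6 (log2 0.72, adjusted p = 0.132, and 0.22, adjusted p = 0.443, without those hearts). Of 21 further target genes of YAP and TEAD, 20 were tested, with a median of 0.10. Of these 2 were higher and 0 lower, where 3.48% and 1.14% of all tested genes were. *Nt5e*, the ectonucleotidase CD73, rose by 0.51 (SE 0.11, adjusted p = 0.0111) and separated the groups in all 9 hMut hearts. *Tgfb2*, a TGF-β ligand, rose by 0.92 (SE 0.23, adjusted p = 0.0303). Without replicates 6 and 9 the differences were 0.39 (adjusted p = 0.0134) and 0.56 (adjusted p = 0.04995), and of 27 alternatives 26 called *Nt5e* and 18 called *Tgfb2*. *Ankrd1*, the cardiac ankyrin repeat protein, reached 4778 CPM in replicate 6 against at most 1330 CPM in Ctrl, without passing the test (0.88, adjusted p = 0.0920, and 0.36, adjusted p = 0.316, without replicates 6 and 9).

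Markers of the cell types a whole heart holds were read beside these genes. Among all tested genes and in either direction, edgeR called 4.62%, DESeq2 called 9.19%, and 25.8% passed an unadjusted p under 0.05. The counts of markers below are to be read against these shares. Of 12 markers of resting cardiac fibroblasts, 0 were called (5 higher and 0 lower by unadjusted p, 2 higher by DESeq2). Their summed level was 1828 CPM in replicate 6 and 1755 CPM in replicate 9, within the 1681 to 2130 CPM of Ctrl hearts. *Pdgfra*, the receptor that defines cardiac fibroblasts, averaged 46.3 CPM in Ctrl and was 52.5 and 54.1 CPM in replicates 6 and 9, a far smaller step than that of *Postn*. Other markers of the list moved more. *Mfap5*, which also stands in the activated fibroblast list, averaged 14.7 CPM in Ctrl and was 43.4 and 31.8 CPM in these hearts. *Scara5* went the other way, from a Ctrl mean of 32.0 CPM to 10.4 and 14.9 CPM. Individually, 8 of the 12 markers in replicate 6 and 7 in replicate 9 were above every Ctrl heart, while *Gsn*, the largest part of the sum, was below the Ctrl range in both at 691 and 654 CPM. The share of all tested genes above every Ctrl heart in these hearts was not computed.

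Of 14 macrophage markers 0 were called (9 higher and 0 lower by unadjusted p, 1 higher by DESeq2), and their sum stood at 1511 CPM in replicate 6 and 801 CPM in replicate 9, against 304 to 456 CPM in Ctrl and 386 to 496 CPM in the other 7 hMut hearts. Their median log2 difference was 0.58, and 0.11 without replicates 6 and 9. Of 9 markers of lipid-associated and scar macrophages other than *Spp1*, 3 were higher. They were *Lgals3*, which encodes galectin-3, at 2.62 (edgeR adjusted p = 0.000385), *Gpnmb* at 1.48 (adjusted p = 0.00973) and *Ctsd* at 0.18 (adjusted p = 0.0441), and the sum of the list, mostly *Lpl*, was 7192 to 9032 CPM in Ctrl and 4840 to 7961 CPM in hMut hearts. Of 12 lymphocyte markers 0 were called (4 higher by unadjusted p, 0 by DESeq2), with a sum of 93.2 CPM in replicate 6 against at most 54.2 CPM in Ctrl. Of 12 cardiomyocyte markers 0 were called by edgeR (7 lower by unadjusted p, 4 lower by DESeq2), and their sum was 41239 and 38373 CPM in replicates 6 and 9 against 50469 to 60347 CPM in Ctrl.

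Of 12 endothelial markers 3 were higher, *Eng* at 0.35 (edgeR adjusted p = 0.0371), *Cldn5* at 0.61 (adjusted p = 0.0388) and *Kdr* at 0.39 (adjusted p = 0.0407), with sums of 1173 to 1435 CPM in Ctrl and 1242 to 1720 CPM in hMut hearts. Of 12 smooth muscle and pericyte markers 1 was higher, *Pdgfrb* at 0.24 (adjusted p = 0.0442), with a sum of 1064 CPM in replicate 6 against 1249 to 1545 CPM in Ctrl. Without replicates 6 and 9, 0 endothelial, 0 smooth muscle and pericyte and 0 valve, tendon and cartilage genes were called by edgeR, whereas *Lgals3*, *Gpnmb*, *Bmp10* and *Wt1* were still called and *Ctsd* was not. *Lpl*, lipoprotein lipase, the only gene of the lipid-associated list with a negative difference (-0.39, adjusted p = 0.0624), was called lower without those hearts (-0.26, adjusted p = 0.0468), by DESeq2 (adjusted p = 0.0177) and by limma-voom (adjusted p = 0.00770). The valve, tendon and cartilage list had 7 of 11 genes tested and 3 higher, *Scx*, *Comp* and *Fmod*, all of which also stand in a list above. All 7 differences were positive, with a median of 0.36, and *Tnmd*, *Acan*, *Col2a1* and *Chad* were too low to be tested. The sum of this list was 23.5 to 28.7 CPM in Ctrl and 78.8 and 89.0 CPM in replicates 6 and 9. Among 6 tested atrial markers 1 was higher, *Bmp10* at 5.58 (adjusted p = 3.25e-05, above every Ctrl heart in 9 of 9), while the atrial light chain *Myl7* was too low to be tested. The median of the 6 was 0.12, with 4 positive. The sum of the atrial list, mostly *Nppa*, was 83.4 to 214 CPM in Ctrl and 727 and 485 CPM in replicates 6 and 9. *Nppa* itself did not pass the test (1.16, edgeR adjusted p = 0.101). Among 3 tested epicardial markers 1 was higher, *Wt1* at 0.54 (adjusted p = 0.0226), while all 3 were higher by unadjusted p and limma-voom called all 3. *Msln* (2.15, edgeR adjusted p = 0.0795) and *Upk3b* (1.75, adjusted p = 0.130) averaged only 0.157 and 0.435 CPM in Ctrl hearts. The sum of the epicardial list was 2.84 to 6.81 CPM in Ctrl and 4.34 to 12.4 CPM in hMut hearts. Of the Schwann cell (7 tested) and adipocyte (2 tested) markers 0 were called, 0 passed an unadjusted p of 0.05 and 0 were called by DESeq2. The part of these cell types in the levels of the matricellular genes was not tested.

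**Figure D4:**
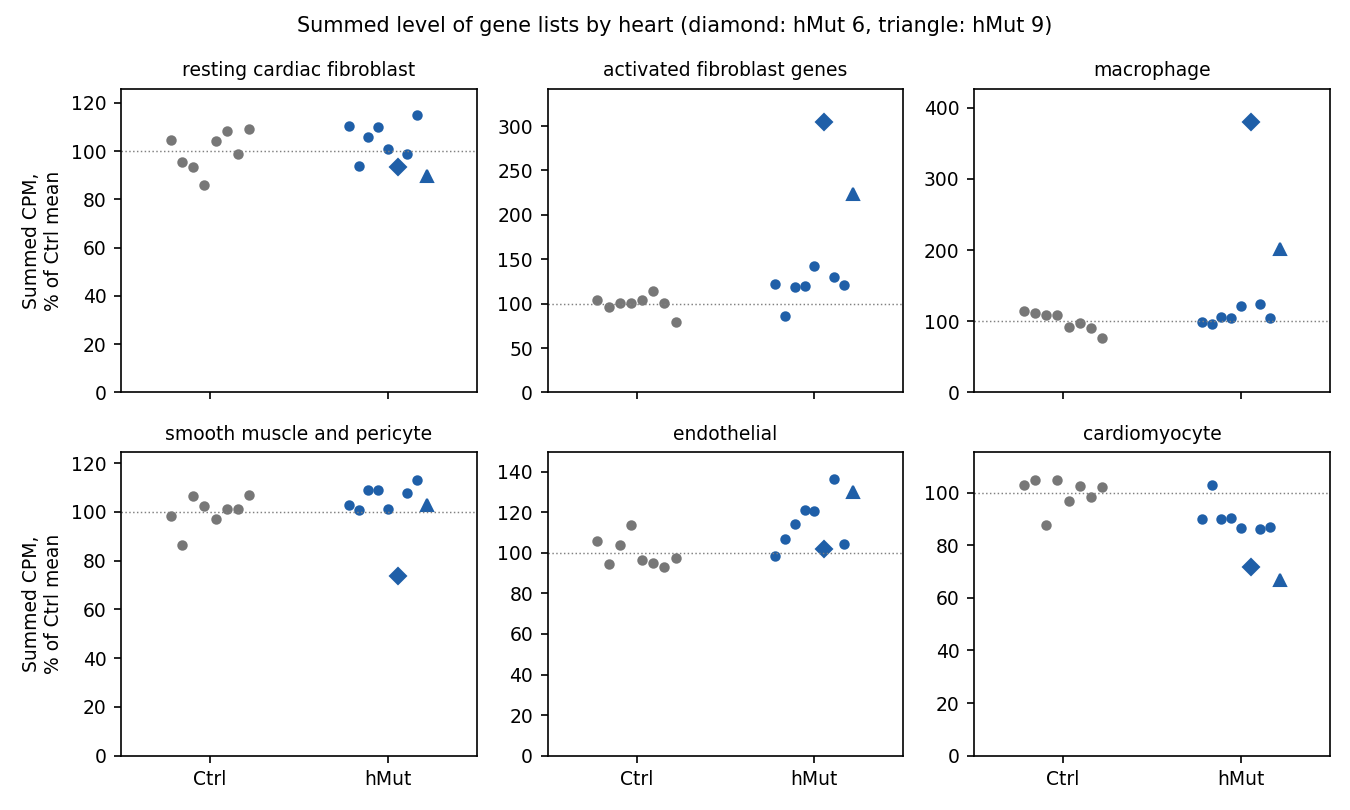
Summed CPM of 6 gene lists in each heart as a percentage of the Ctrl mean (dotted line at 100), with Ctrl hearts in grey and hMut hearts in blue, replicate 6 as a diamond and replicate 9 as a triangle. These hearts stand above the others for the activated fibroblast and macrophage lists, below them for cardiomyocyte markers and among them for resting fibroblast markers.

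The genes whose level followed each member most closely over the 17 libraries were found by Spearman's correlation of log2 CPM, given as a description since the hearts fall into unequal groups. *Postn* was nearest to *Mfap5* (0.961), *Bgn* and *Anxa4*, of which the first 2 encode matrix proteins. *Thbs4* was nearest to its relative *Comp* (0.934), then *Dusp4* and *Tax1bp3*. *Ccn5* was near to *Ankrd1* (0.922) and *Tspan17*, and *Tnc* to *Osmr* (0.900), the oncostatin M receptor, *Gnai3* and *Sh3bgrl3*. *Thbs1* was nearest to *Msn* (0.975), *Spire1* and *Picalm*, *Ccn2* to *Atp6v0d1* (0.971), *Anxa3* and *Pon2*, and *Sparc* to *Rhog* (0.956), *Elf4* and *Prr13*. *Ccn1* had other neighbours, *Grpel2* (0.926), *Adgra1* and *Stk40*. The loosest was *Spp1*, with *Gm42688* at 0.846, *Nanos1* and *Kifc1*.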

How the data were processed

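RNA-seq was measured in 17 mouse hearts aged 12 to 16 months (8 Ctrl, 9 hMut), grouped by the depositors' labels. The authors trimmed reads (fastp), used HISAT2 (version 2.2.1) for alignment against GRCm39 and made the deposited raw counts per gene with featureCounts (version 2.0.6). The annotation and strand setting are not given in the sources used here, so reads of overlapping genes cannot be separated. All further values were computed from these counts, and 0 columns of sample values were left unmapped. Litters and preparation days are not given in the labels, and p-values measure the spread between these hearts.

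Genes were filtered with filterByExpr, TMM-normalized and fitted in edgeR (version 4.0.16, under R 4.3.3) by quasi-likelihood, with genotype as the only term and all 17 libraries. Benjamini-Hochberg adjustment ran over 16195 genes at a threshold of 0.05, and SEs are the size of the log2 fold change over the square root of F. On simulated counts, 87 of 88 genes changed by 1 and 112 of 112 changed by 2 (log2) were called, with 6 false calls among 15845 unchanged genes. In the measured hearts, *Ccn5* (1.68), *Tnc* (1.58) and *Postn* (1.36) were not called, whereas *Ccn2* (1.38) and *Thbs1* (1.23) were. How often such differences are called among hearts as uneven as these was not tested. The floor of 3 counts covers counting error only, whereas the SEs include the spread between hearts. Alternatives were DESeq2 (version 1.42.0), limma-voom with quality weights (version 3.58.1), RLE and upper-quartile scaling, no filter or a filter of 1 CPM in 8 libraries, mtDNA-encoded genes removed, sex (read from the counts, 3 of 8 Ctrl and 2 of 9 hMut hearts female) as a term, a block for replicate numbers, and hearts left out. Members and lists were chosen with earlier results of these data known, and lists were written by hand from general knowledge. All 10 members are named, with the 3 genes of smallest adjusted p of each list where called, the 3 genes nearest to each member, and family partners. A gene that this rule names is not reported here. *Scx*, *Ltbp2*, *Fmod*, *Col1a1*, *Col3a1*, *Acta2*, *Itgb3*, *Cd44*, *Ankrd1*, *Pdgfra*, *Scara5*, *Gsn*, *Lpl*, *Tnmd*, *Acan*, *Col2a1*, *Chad*, *Myl7*, *Nppa*, *Msln* and *Upk3b* were named after their values were seen. Promoters came from a RefSeq table, gene models from GENCODE, and figures were drawn with matplotlib (version 3.10.9).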

Additional observations from a re-analysis of the deposited data

Results flagged for a closer look

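Each of the 10 genes was checked in each genotype for 1 heart far from the rest by Dixon's criterion. Of the 20 groups of hearts, 3 met it. The criterion marks about 1 in 20 groups of independent, normally spread values. These groups share the same hearts and CPM was not log-transformed, so that rate does not hold here. In all 3 groups the heart was hMut replicate 6. *Tnc* stood at 27.4 CPM there, with the next hMut heart at 9.04 CPM. *Thbs4* stood at 23.8 CPM, with the next at 9.58 CPM, and *Spp1* at 5.66 CPM, with the next at 2.46 CPM. In each case the next heart was hMut replicate 9.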

How the results depend on the processing

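The 9 log2 differences kept their direction and their side of the threshold in 193 of 242 fits, with 34 no longer called, 13 newly called and 2 reversed, both for *Spp1* (-0.21 with limma-voom and -0.47 without hMut replicates 6 and 9). *Ccn2* was lost in 1 of its 27 fits, that with a replicate block, *Thbs1* in 13 and *Sparc* in 20. The number of the 9 genes called, 3 as reported, was 6 with DESeq2, 5 with limma-voom, 1 with sex as a covariate, 1 without replicates 6 and 9, and 1 to 6 with single hearts left out, the highest without hMut replicate 2. Of the 4 pathway lists together, 10 genes were called as reported, 26 with DESeq2, 25 with limma-voom, 6 with sex, 4 without replicates 6 and 9, and 3 to 32 with single hearts left out. Over all genes, 749 were called as reported, 1502 with DESeq2, 2081 with limma-voom, 463 with no filter, 431 without replicates 6 and 9, and 395 (without hMut replicate 5) to 1792 (without hMut replicate 2) with single hearts left out. Of the calls, 75.3% were higher as reported and 56.5% with limma-voom. With the replicate block 195 genes, 1 list gene and 0 of the 9 were called (edgeR, 5 of the 9 at an unadjusted p under 0.05). Same-numbered hearts did not pair, their deviations correlating from -0.225 to 0.339, and the ninth hMut heart has no partner. The cause of these shifts was not tested. *Cthrc1*, at 1 to 22 counts, entered only the fits without the filter and with DESeq2, and was called in neither.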
